A study of Mus musculus with 4 samples.

Results

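The genes examined here encode the proteins that license and copy DNA in S phase. They comprise 44 genes: the 6 subunits of the MCM2-7 helicase, Mcm8, Mcm9 and Mcm10, the origin recognition complex (ORC), the loaders Cdc6 and Cdt1 with the inhibitor geminin (Gmnn), Cdc45 and the GINS subunits, the primase and DNA polymerase genes, the single-strand binding protein RPA, the clamp loader RFC, the clamp PCNA, the flap nuclease Fen1, the ligase Lig1 and both subunits of ribonucleotide reductase. They were picked out of the deposited expression table by their gene symbols, and all 44 were found among its 24026 genes. Gene expression was measured by RNAseq of polyA RNA in 4 libraries (replicates 1 to 4) of F123-ESCs, a male hybrid line of mouse embryonic stem cells (genotype S129/CAST, from the F1 of S129/Jae and Cast mice) with maternal S129 and paternal CAST chromosomes. All 4 libraries were of untreated cells of this one line, so that the only comparison the design offers is that of the S129 allele with the CAST allele within each library. The cells had been grown on inactivated mouse feeder fibroblasts with LIF, were then passaged without feeders on gelatin, and were harvested about 48 h after plating. The line comes from a single cross, so that the strain of an allele and the parent it came from cannot be told apart. The labels do not say whether the libraries came from separate cultures, and p-values then measure only the spread between these libraries.

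Replication is licensed in G1, when ORC, which binds origins, together with Cdc6 and Cdt1 loads the MCM2-7 helicase onto DNA as an inactive double hexamer, while geminin keeps Cdt1 from loading it again later in the cycle. In S phase, Cdc45 and the GINS complex join MCM2-7 to form the active helicase, primase and polymerase alpha lay down primers, and polymerases epsilon and delta extend them with the clamp PCNA, which RFC places on DNA. Embryonic stem cells divide quickly, with a short G1 and a large share of cells in S phase, and many of these genes are known targets of the E2F transcription factors.

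The deposited values are RPKM (reads scaled to the length of the gene and to the depth of the allele's library) for each allele in each library, 8 values for each gene. Only reads that cover a SNP between the strains were assigned to an allele, so that a gene's RPKM also depends on how many SNPs its transcript holds. The read totals, estimated from the steps of the values, summed over both alleles to between 34120416 and 56627972 in a library. Replicate 4 was the least deep. The reads recovered for the genes made up between 95.71% and 96.69% of these totals in a library. Among members of at least 1 RPKM, a column held between 162 reads (Orc3) and 18003 reads (Pcna). All 8 embryonic stem cell markers examined, from Pou5f1 at 29.5 RPKM to Dppa5a at 7111 RPKM, were expressed. Of 8 fibroblast markers, 6 had at least 1 RPKM; Col1a2 stood at 166 RPKM and Postn at 15.4 RPKM, while Dcn and Lum were at 0.659 and 0.0462 RPKM. Over all 8, the summed RPKM lay between 180.1 and 226.7 in a library, and the part of feeder cells in the values below was not tested. Of 5 primitive endoderm markers, 3 had at least 1 RPKM, the highest at 3.31 RPKM.

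The promoters of the genes were searched for letters that E2F factors are known to bind. RefSeq promoters in GRCm38.p6 (250 bases before to 50 after a start) were at hand for 36 of the 44 genes, with 1.22 starts per gene, as over all genes of the table. The letters TTTCCCGC, TTTGGCGC or TTTCGCGC were found on either strand in 15 of these 36 genes, or 41.7%, compared with 2.12% of the 27025 genes with a promoter and 4.10% of the 10313 that entered the comparison of alleles. CCAAT, the letters that NF-Y binds, were found on either strand in 24 of 36 genes (66.7%), compared with 41.1% of all genes. In 8 of the 15 genes a match lay before the start, and these stretches are shown as the places where the letters stand. Each is written 5′ to 3′ along the gene's own strand, with the matching letters in capitals. GCGGGAAA, GCGCCAAA and GCGCGAAA are the same letters read on the opposite strand, and in Mcm5 and Mcm6 a match on one strand overlaps one on the other. The stretches of Cdc6, Gins3, Mcm7, Orc1 and Rfc3 lie at least in part inside the gene as GENCODE annotates it, so they are cut to at most 30 bases.
Mcm5 (chr8:75109341-75109382, + strand): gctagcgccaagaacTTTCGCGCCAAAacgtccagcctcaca
Mcm6 (chr1:128359730-128359830, - strand): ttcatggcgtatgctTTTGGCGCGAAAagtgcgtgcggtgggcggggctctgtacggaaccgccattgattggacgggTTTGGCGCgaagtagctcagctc
Mcm7 (chr5:138172030-138172059, - strand): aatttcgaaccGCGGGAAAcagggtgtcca
Orc1 (chr4:108579416-108579445, + strand): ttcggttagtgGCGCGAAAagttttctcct
Orc3 (chr4:34614961-34614998, - strand): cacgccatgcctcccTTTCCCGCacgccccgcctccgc
Cdc6 (chr11:98908002-98908031, + strand): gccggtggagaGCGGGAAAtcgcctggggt
Gins3 (chr8:95633507-95633536, + strand): gcgagtgcggcGCGGGAAAgcgagtttgaa
Rfc3 (chr5:151651209-151651229, - strand): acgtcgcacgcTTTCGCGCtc

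A match is a description of the letters and not of binding. The genes above with these letters included Mcm5 and Mcm7, at over 100 RPKM as deposited, and Gins3, of which almost no reads were counted. The letters were found after the start alone in Cdt1, Lig1, Mcm3, Mcm8, Pold1, Pold3 and Pole2, and on both sides of a start in Mcm7 and Rfc3.

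The replication genes were expressed at high levels in F123-ESCs. As the mean of both alleles and of 4 libraries, 43 of 44 genes had at least 1 RPKM, and 41 lay above 7.79 RPKM, the median of all genes of at least 1 RPKM over both alleles. The median over the 44 genes was 46.5 RPKM, with quartiles of 30.4 and 128 RPKM, compared with 0.975 RPKM over all 24026 genes. Levels of at least 100 RPKM were found for 14 genes, and the levels of expressed genes ran from 3.87 RPKM (Mcm9) to 632 RPKM (Pcna).

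**Figure D1:**
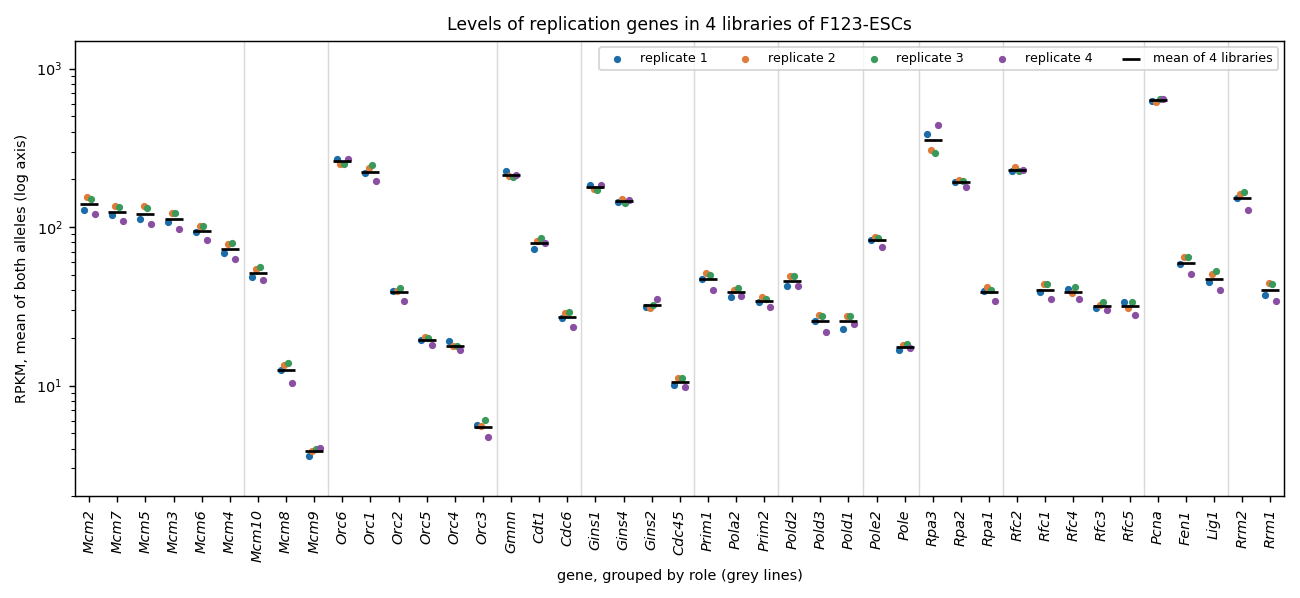
RPKM of 43 replication genes (vertical log axis, mean of the S129 and CAST alleles) in each of 4 libraries of F123-ESCs (coloured points) with the mean of the libraries (black bar), grouped by role between grey lines; Gins3, with almost no reads, is not drawn. Pcna is the highest at 632 RPKM and Mcm9 the lowest at 3.87 RPKM, the 6 MCM2-7 genes lie between 72.6 and 139 RPKM, and Rpa3 shows the widest scatter between libraries.

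The 6 genes of the MCM2-7 helicase, which unwinds the parental strands and whose subunits form a ring in equal number, lay within a 2-fold range as deposited. Mcm2, at the top, had 128.7, 155, 151 and 121 RPKM in replicates 1 to 4 (139 ± 16.6, SD, n = 4). Mcm4, at the bottom, had 68.6, 78.7, 79.9 and 63.2 RPKM (72.6 ± 8.06, SD, n = 4). Between them stood Mcm7 at 125 RPKM, Mcm5 at 122 RPKM, Mcm3 at 112 RPKM and Mcm6 at 94.99 RPKM. The ranges of neighbouring genes in this order overlapped except for those of Mcm6 and Mcm4. Within libraries, each gene of the order exceeded the next in 4 of 4, except that Mcm7 exceeded Mcm5 in 3 of 4. The 3 other MCM genes were lower. Mcm10, a fork factor needed to start the helicase, had 51.3 ± 4.70 RPKM (SD, n = 4). Mcm8 and Mcm9, which form a separate helicase of recombination repair, had 12.6 ± 1.50 and 3.87 ± 0.174 RPKM (SD, n = 4 each). Mcm9 held 3.62, 3.90, 3.96 and 4.01 RPKM in replicates 1 to 4, below Mcm8 in every library.

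Within the origin recognition complex the levels spread far more widely. Orc6 was the highest with 269, 249.9, 251 and 268 RPKM in replicates 1 to 4, and Orc1, the subunit that recruits Cdc6, followed with 224 ± 22.2 RPKM (SD, n = 4). Orc2 had 38.7 RPKM, Orc5 19.4 RPKM and Orc4 17.9 RPKM, with overlapping ranges for Orc5 and Orc4. Orc3 was the lowest with 5.68, 5.56, 6.03 and 4.74 RPKM. Geminin, with 227, 210.0, 207 and 212 RPKM, stood 2.68-fold above Cdt1, the loader it inhibits, which had 79.9 ± 5.40 RPKM (SD, n = 4). Cdc6, the other loader, had 26.7, 28.6, 29.0 and 23.5 RPKM.

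Of the proteins that join the helicase at the fork, Gins1 was the highest with 185, 173, 171 and 184 RPKM, and Gins4 had 147 ± 3.96 RPKM (SD, n = 4). Gins2 had 32.5 ± 2.03 RPKM and Cdc45 10.6 ± 0.694 RPKM (SD, n = 4 each). Gins3, which encodes another subunit of the same complex, was the only member under 1 RPKM: 5 reads were counted over its 8 columns, 3 of them in the CAST column of replicate 2, and no column exceeded 0.0484 RPKM. Reads without a SNP enter no column, and how many SNPs the Gins3 transcript holds was not examined, so that these values do not show that the transcript is absent.

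The polymerase genes had moderate levels. Of primase and polymerase alpha, Prim1, the catalytic primase subunit, was the highest with 47.2, 51.7, 50.1 and 39.97 RPKM, and Prim2 the lowest with 33.8, 36.1, 35.0 and 31.6 RPKM. Of polymerase delta, Pold2 had 42.8, 49.4, 49.0 and 42.3 RPKM, and the catalytic subunit Pold1 had 22.6, 27.3, 27.5 and 24.4 RPKM. The ranges of Pold1 and Pold3 (25.7 RPKM) overlapped. Of polymerase epsilon, the accessory subunit Pole2 had 83.4, 86.8, 85.7 and 75.3 RPKM, against 16.8, 18.0, 18.4 and 17.3 RPKM for the catalytic subunit Pole.

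The 3 subunits of RPA, which covers single-stranded DNA, had ranges that did not overlap. Rpa3, the smallest subunit, had 388, 305, 293 and 439.6 RPKM in replicates 1 to 4 (356 ± 69.6, SD, n = 4), Rpa2 had 192 ± 8.09 RPKM and Rpa1, the main DNA-binding subunit, had 39.01 ± 3.21 RPKM (SD, n = 4 each). Of RFC, Rfc2 had 227, 238, 227 and 228 RPKM, while the other 4 subunits lay between 31.6 RPKM (Rfc5) and 40.4 RPKM (Rfc1). Pcna had 625, 618, 639.8 and 645 RPKM, as deposited above all other members in every library. Fen1, which removes primer flaps, had 59.8 ± 6.95 RPKM, and Lig1, which seals the nicks, had 47.2 ± 5.83 RPKM (SD, n = 4 each), with overlapping ranges. Rrm2, the regulated subunit of ribonucleotide reductase, which makes the deoxynucleotides, had 153, 162, 168 and 128 RPKM, 3.83-fold above its partner Rrm1 at 39.9 ± 5.09 RPKM (SD, n = 4).

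Some of these differences within complexes depended on the gene length by which the reads were divided. The RPKM steps of 40 of the 44 genes gave whole reads with the length of the first transcript that GENCODE M21 lists, and for some genes that transcript is short. For Rfc2 it has 655 bp, whereas the longest coding transcript has 4995 bp. With the latter, Rfc2 went from 229.9 to 30.2 RPKM, and the 5 RFC genes came to lie between 30.2 and 39.8 RPKM. Orc1 (443 bp compared with 3014 bp) went from 224 to 32.9 RPKM, Gins1 (339 bp compared with 1087 bp) from 178 to 55.6 RPKM and Pole2 (545 bp compared with 1706 bp) from 82.8 to 26.4 RPKM. In these 4 genes the longest coding transcript was at least 2 times the length used. In a further 10 genes the union of all exons reached that ratio, which makes 14 genes in all. With the longest coding transcript, the MCM2-7 genes kept their order except that Mcm6 went from 94.99 to 63.5 RPKM, below Mcm4. With the exon union, Mcm5 came first at 103 RPKM, followed by Mcm3 at 90.8, Mcm7 at 83.5, Mcm4 at 72.6, Mcm2 at 67.4 and Mcm6 at 59.2 RPKM. By the mean of 4 libraries, Pcna remained the highest member, at 388 RPKM with the longest coding transcript and 245 RPKM with the exon union. Rpa3 came close, at 356 and 210 RPKM, and single libraries were not compared under these lengths. The median of the 44 genes was 39.4 RPKM with the longest coding transcript and 31.3 RPKM with the exon union. Which transcripts the reads came from was not tested, so that levels can be compared between libraries and alleles of one gene but between genes only within these limits.

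**Figure D2:**
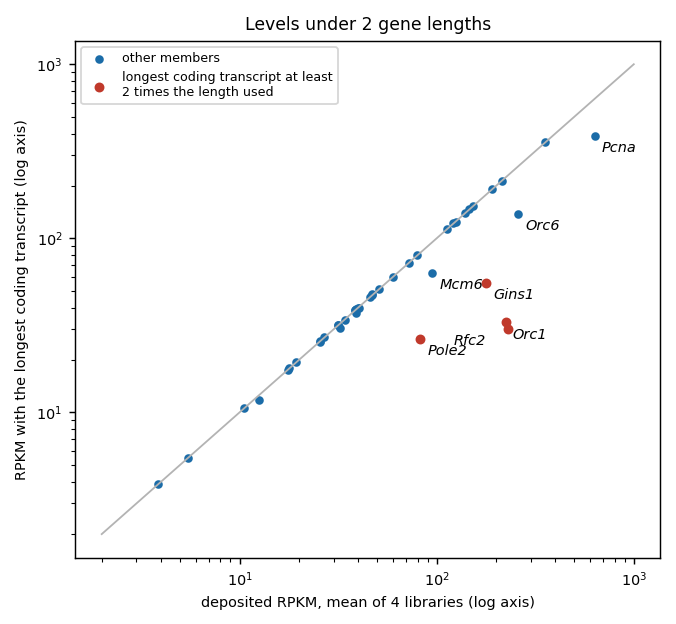
RPKM of 43 replication genes as deposited (horizontal log axis, mean of 4 libraries) against RPKM recomputed from the same reads with the longest coding transcript (vertical log axis); the grey line marks equal values. The 4 red points, Rfc2, Orc1, Gins1 and Pole2, fall well below the line, since their deposited values rest on transcripts of 655, 443, 339 and 545 bp, while most other genes lie on it.

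Between libraries, most replication genes moved together, and in the same direction as other genes. On the log2(RPKM+0.1) scale, the median deviation of the 43 expressed members from their own means was -0.02, 0.07, 0.10 and -0.15 in replicates 1 to 4, against -0.03, 0.06, 0.08 and -0.10 over the 13341 genes of at least 1 RPKM over both alleles. In replicates 2 and 3, 34 and 36 of 43 members were above their own mean (70.0% and 74.7% of all genes), and in replicate 4, the least deep library, 7 of 43 were (28.3% of all genes). All 6 MCM2-7 genes were higher in replicates 2 and 3 than in replicates 1 and 4. The median SD between libraries was 0.12 over the members and 0.14 over all these genes, and without replicate 4 it was 0.067 over the members.

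Rpa3 went the opposite way, with its highest values in replicates 4 and 1 and its lowest in replicates 3 and 2, and had the largest SD of the members, at 0.28. Gins1, Gmnn, Orc6 and Rpa3 were each higher in replicates 1 and 4 than in replicates 2 and 3. Their longest coding transcripts have 1087, 1127, 1466 and 670 bp. Not all members of such length did so: Rfc4 (1279 bp) and Rfc3 (1317 bp) were lowest in replicate 4. The longer Gins2 (3900 bp) was highest in replicate 4. In replicate 4, the 13 members whose longest coding transcript is under 2000 bp deviated by a median of -0.07 and the 30 longer members by -0.19, and over all 12252 protein-coding genes the medians were 0.02 for 3274 short genes and -0.13 for 8978 long genes. This split by length was made after the values were seen, and its cause was not tested. Pcna varied the least, with an SD of 0.03. The libraries are of one condition, so that these differences describe the samples and not a treatment.

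**Figure D3:**
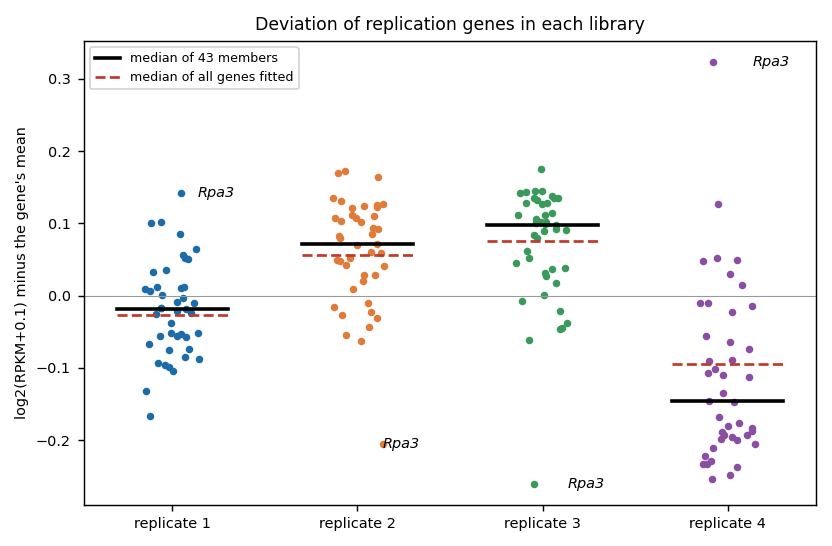
Deviation of each of 43 replication genes from its mean over 4 libraries (points, log2(RPKM+0.1)) in each library, with the median of the members (black line) and of all 13341 genes compared (dashed red line). The members sit mostly above 0 in replicates 2 and 3 and below 0 in replicate 4, where the medians are -0.15 for the members and -0.10 for all genes; Rpa3 goes the opposite way in all 4 libraries.

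The alleles of the replication genes were then compared within each library. Of the 43 members fitted, 17 had more RNA from the S129 allele, 17 more from the CAST allele, and 9 did not pass the test (limma on the differences in log2(RPKM+0.1), Benjamini-Hochberg adjusted p under 0.05 over 13341 genes). The same test called 62.7% of all genes fitted and 66.2% of those with at least 5 RPKM over both alleles, as against 34 of 43 members; 31.4% of all genes were called higher on S129 and 31.3% higher on CAST, or 28.9% and 32.5% of the autosomal genes, where all members lie. When the differences were centred on autosomal genes, 17 members were called higher on S129 and 15 higher on CAST. Of all genes, 33.0% and 29.5% were then called. The differences were small, with a median size of 0.21 on the log2 scale over the members. The median size was 0.31 over all genes fitted and 0.29 over the autosomal genes. In each of the 34 called members all 4 libraries lay on one side, as they did in Fen1, Lig1, Mcm5 and Orc1, which were not called. A call from 4 libraries nearly requires this, so that it gives no separate support. A difference of at least 2-fold with a call was found on each side for 1 member, Rfc3 on S129 and Rpa3 on CAST. Over all genes fitted, the shares were 9.55% on S129 and 5.43% on CAST. The share on S129 includes genes of the X chromosome, of which this male line has only the S129 copy (median log2 difference 6.34). The share among autosomal genes alone was not counted on this scale. When the pairing of the alleles by library was left out, 11 members were called higher on S129 and 11 higher on CAST, as were 24.7% and 23.5% of all genes. The calls of 25 members held without each library in turn. In these fits 26.0% to 29.6% of all genes were called higher on S129 and 25.3% to 29.6% higher on CAST. How many of all called genes kept their call was not counted.

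By role, the 3 RPA genes were all higher on CAST, as were both ribonucleotide reductase genes. Of the 5 RFC genes, 4 were higher on S129 and 1, Rfc1, on CAST. MCM2-7 had 2 genes higher on S129 (Mcm4, Mcm7), 1 higher on CAST (Mcm6) and 3 that did not pass. ORC had 3 higher on S129 (Orc2, Orc4, Orc5) and 2 higher on CAST (Orc3, Orc6). Subunits of one complex therefore lay on both sides in MCM2-7, ORC, RFC and the polymerases delta and epsilon. Of the autosomal genes, 28.9% were called higher on S129 and 32.5% on CAST, and no role was tested against these shares. Rrm1 lay close to the threshold (limma adjusted p = 0.044). Relative to the chromosome part, taken up below, Rrm1 did not pass, and RFC had 3 genes higher on S129 and 1 on CAST. MCM2-7 then had 2 and 3, and ORC 3 and 1.

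**Figure D4:**
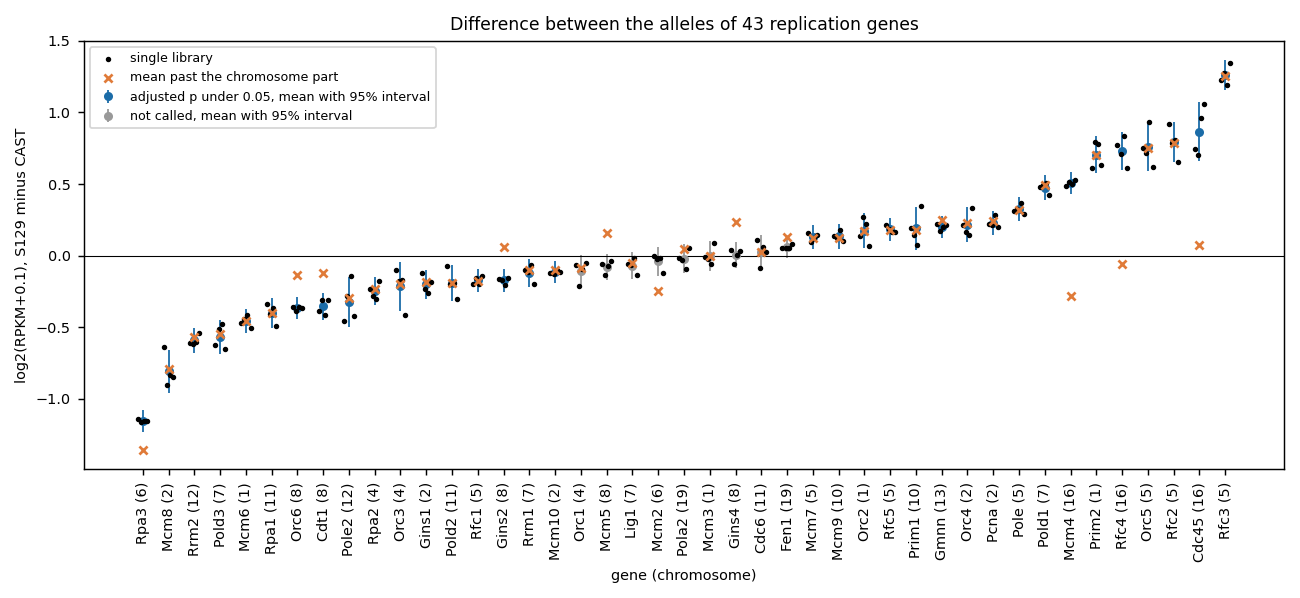
Log2 difference between the S129 and CAST alleles (vertical axis, log2(RPKM+0.1), S129 minus CAST) of 43 replication genes, ordered by size with the chromosome in parentheses; small black points are the 4 libraries, large points the mean with its 95% interval (blue where the adjusted p is under 0.05, grey otherwise) and orange crosses the mean after the median of the gene's chromosome part was taken out. Rpa3 at -1.15 and Rfc3 at 1.26 stand at the ends, and the crosses depart from the points for genes on chromosomes 6, 8 and 16.

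Rfc3 had the largest difference of the members toward S129. Its S129 allele had 43.2, 45.7, 46.7 and 43.2 RPKM in replicates 1 to 4 and its CAST allele 18.4, 18.8, 20.4 and 16.9 RPKM, without overlap. The log2 difference was 1.26 (SE 0.04, limma adjusted p = 4.2e-05), or 2.39-fold. S129 reads made up between 70.4% and 72.6% of its reads in a library, and the widest 95% Clopper-Pearson interval, in replicate 4, ran from 70.16% to 74.97%, which covers counting error only. Rfc2 and Rfc4 showed smaller differences in the same direction. The S129 allele of Rfc2 had 297, 301, 289 and 279.5 RPKM against 157, 175, 165 and 177 RPKM for CAST (log2 difference 0.79, SE 0.05, limma adjusted p = 3.8e-04). The S129 allele of Rfc4 had 51.4, 47.8, 53.4 and 42.5 RPKM against 30.02, 29.2, 29.9 and 27.8 RPKM (0.73, SE 0.05, limma adjusted p = 4.0e-04). Rfc5 was higher on S129 by 0.18 and Rfc1, the largest subunit, was higher on CAST, at -0.17.

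Orc5 and Cdc45 were also among the 5 members with the largest difference toward S129. The S129 allele of Orc5 had 24.2, 25.1, 26.2 and 21.9 RPKM and the CAST allele 14.4, 15.2, 13.7 and 14.2 RPKM (log2 difference 0.76, SE 0.06, limma adjusted p = 7.1e-04). Cdc45 had 12.7, 13.8, 14.8 and 13.3 RPKM on S129 against 7.57, 8.46, 7.53 and 6.31 RPKM on CAST (0.87, SE 0.08, limma adjusted p = 9.2e-04). In both genes every S129 value exceeded every CAST value. The primase subunit Prim2 followed with a log2 difference of 0.70, at 42.3 ± 3.32 RPKM on S129 and 25.9 ± 0.887 RPKM on CAST (SD, n = 4 each).

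Rpa3 had the largest difference toward CAST, and its size was almost the same in all libraries although its level was not. The CAST allele had 534, 421, 405 and 607 RPKM and the S129 allele 242, 188, 182 and 272 RPKM. The log2 difference lay between -1.16 and -1.14 in the 4 libraries (mean -1.15, SE 0.03, limma adjusted p = 2.1e-05), or 2.23-fold, and S129 reads made up 31.8% ± 0.0438 of its reads (SD, n = 4). Of the 75-base words of its longest coding transcript, 13.1% also occur in the pseudogene Gm6195, and whether reads of the pseudogene entered its counts was not tested. For Mcm7, 14.5% of the words occur in Gm5487, and for Pole2, 10.5% in Gm49384. Gm49384 is annotated as a protein-coding gene on the same strand, whose exons overlap 8.50% of the Pole2 exons. Whether reads of these genes entered the counts was not tested either. The other RPA genes were higher on CAST by less: Rpa1 had 44.4 ± 3.13 RPKM on CAST against 33.7 ± 3.41 RPKM on S129, and Rpa2 had 208 ± 12.1 against 175 ± 4.51 RPKM (SD, n = 4 each). Their log2 differences were -0.40 and -0.25 (limma adjusted p = 0.0013 and 0.0045).

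Mcm8, Rrm2, Pold3 and Mcm6 were the next 4 members toward CAST. Mcm8 had 15.3, 17.5, 17.7 and 13.5 RPKM on CAST against 9.81, 9.30, 9.89 and 7.43 RPKM on S129 (log2 difference -0.81, SE 0.06, limma adjusted p = 4.4e-04). Rrm2 had 185, 196, 202 and 152 RPKM on CAST against 121, 128, 133 and 104 RPKM on S129 (-0.59, SE 0.03, limma adjusted p = 2.0e-04). In both genes the ranges of the alleles did not overlap. Pold3, an accessory subunit of polymerase delta, had 31.1, 32.8, 32.1 and 26.6 RPKM on CAST against 20.1, 23.0, 23.0 and 16.9 RPKM on S129 (-0.57, SE 0.05, limma adjusted p = 6.6e-04). Mcm6 had 109, 117, 116 and 97.6 RPKM on CAST against 78.5, 86.3, 87.0 and 68.8 RPKM on S129 (-0.46, SE 0.03, limma adjusted p = 4.7e-04). Mcm6 was the one MCM2-7 gene higher on CAST before the chromosomes were taken into account.

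Of the members fitted, 10 lie on chromosomes whose genes as a whole departed from equal alleles, so each difference was also taken relative to the other genes of the same chromosome part. On the first part of chromosome 16, up to Zbtb11, the median gene stood at 0.79 on the log2 scale (S129 minus CAST), and 87.0% of its 308 genes were called higher on S129. On chromosome 6 the median was 0.20 (51.4% of 636 genes higher on S129), and on chromosome 8 it was -0.25 (53.9% of 713 genes higher on CAST). The cause of these shifts was not tested, and the end of the first part of chromosome 16 was set from these same data. After the median of the part had been taken out within each library, 32 of the 43 members fitted passed, 16 toward each allele, compared with 56.9% of 12869 autosomal genes (28.5% toward S129 and 28.4% toward CAST). Rfc3 and Rpa3 were again the members called with at least 2-fold, against 5.96% of these genes toward S129 and 4.48% toward CAST. The call was unchanged for 27 members, 5 members passed neither test, and the call of 11 members differed. Without the pairing of the alleles, 10 and 8 members were called (20.8% and 19.6% of the autosomal genes), and without replicate 2 the number higher on CAST was 10 (22.0% of these genes).

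**Figure D5:**
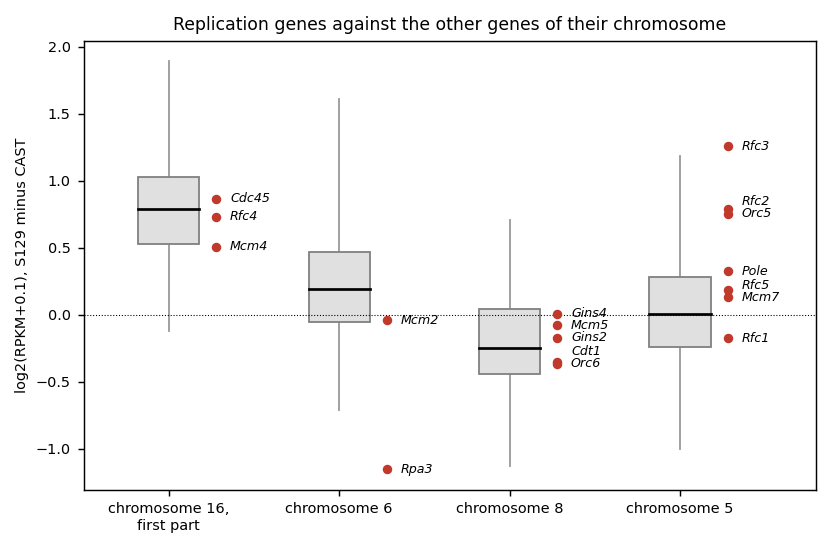
Log2 difference between the S129 and CAST alleles (vertical axis, log2(RPKM+0.1), S129 minus CAST) of replication genes (red points) beside the genes of the same chromosome part (box between the quartiles with the median, line from the 5th to the 95th percentile). On the first part of chromosome 16, Cdc45, Rfc4 and Mcm4 lie near or below a median of 0.79; on chromosome 6, Rpa3 lies far below the box; on chromosome 8 the members scatter around a median of -0.25; chromosome 5, with a median near 0, carries Rfc3, Rfc2 and Orc5.

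All 3 members on the first part of chromosome 16 changed their call. Cdc45 went from 0.87 to 0.08 (SE 0.08) and Rfc4 from 0.73 to -0.06 (SE 0.05), and neither passed the test on this scale (limma adjusted p = 0.43 and 0.35). The 95% intervals ran from -0.13 to 0.28 for Cdc45 and from -0.19 to 0.07 for Rfc4. Mcm4 had 80.2, 92.6, 93.7 and 74.7 RPKM on S129 against 57.1, 64.9, 66.1 and 51.8 RPKM on CAST, a log2 difference of 0.51 (SE 0.03, limma adjusted p = 2.5e-04). Relative to the chromosome part it was -0.28 (SE 0.03, limma adjusted p = 0.0018), toward CAST, and 23.3% of the genes of the part had a lower value.

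On chromosome 6, Mcm2 had 128.7, 154, 150.4 and 116 RPKM on S129 and 128.7, 156, 152 and 127 RPKM on CAST. This difference of -0.04 did not pass the test (SE 0.04, 95% interval from -0.14 to 0.06, limma adjusted p = 0.38). Relative to the chromosome it was -0.24 (limma adjusted p = 0.0059). Rpa3, on the same chromosome, went from -1.15 to -1.36.

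On chromosome 8 the members shifted the other way. Mcm5, with 111, 129.9, 128.6 and 104 RPKM on S129 and 115, 143, 136 and 107 RPKM on CAST, went from -0.08 (limma adjusted p = 0.10) to 0.16 (limma adjusted p = 0.016). Relative to the 50 nearest genes on either side, Mcm5 stood at 0.07 (limma adjusted p = 0.16). Gins4 had 146, 148, 143 and 149.5 RPKM on S129 and 142, 155, 143 and 147 RPKM on CAST, and went from 0.00 to 0.24 (limma adjusted p = 0.92 and 0.0047). Orc6 had 302, 283, 282 and 302 RPKM on CAST against 236, 217, 220.2 and 234 RPKM on S129; it stayed higher on CAST, at -0.37 before and -0.13 after (limma adjusted p = 6.4e-04 and 0.017). Cdt1, which had 82.5, 90.9, 97.7 and 87.6 RPKM on CAST against 63.1, 73.2, 73.4 and 70.6 RPKM on S129, likewise went from -0.36 to -0.12 (limma adjusted p = 0.0014 and 0.04), and relative to the 50 nearest genes its limma adjusted p was 0.083. Gins2 had 32.9, 32.9, 34.5 and 37.3 RPKM on CAST against 29.4, 29.2, 29.9 and 33.5 RPKM on S129; its difference of -0.17 (limma adjusted p = 0.0076) became 0.06 (limma adjusted p = 0.14). Exons of Gse1 on the opposite strand overlap 67.3% of the Gins2 exons, and whether the reads were counted by strand is not given in the sources used here. The calls relative to the chromosome part of Mcm5, Orc6 and Cdt1, and of Mcm2 and Mcm4 above, were lost without the pairing of the alleles (limma adjusted p between 0.076 and 0.34), while those of Rpa3 and Gins4 held. Leaving out 1 library ended the call of Mcm5 (replicate 1 or 3), Orc6 (replicate 1, 2 or 3) and Cdt1 (any library). Gins3, also on chromosome 8, had too few reads to be fitted.

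Off these chromosomes, the calls of 4 members changed by smaller shifts. Orc3 had 5.88, 5.90, 6.39 and 5.44 RPKM on CAST against 5.47, 5.22, 5.67 and 4.05 RPKM on S129, and its log2 difference went from -0.22 to -0.20 (limma adjusted p = 0.039 and 0.053). Prim1, with 50.3, 54.2, 51.4 and 44.8 RPKM on S129 against 44.1, 49.1, 48.7 and 35.2 RPKM on CAST, went from 0.19 to 0.18 (limma adjusted p = 0.038 and 0.059). Rrm1, with 38.7, 46.5, 44.6 and 36.3 RPKM on CAST against 36.1, 42.8, 42.7 and 31.7 RPKM on S129, went from -0.12 to -0.10 (limma adjusted p = 0.044 and 0.085). These 3 lay close to the threshold under both scales. Fen1, with 59.7, 66.2, 66.4 and 51.9 RPKM on S129 against 57.4, 63.7, 63.9 and 49.0 RPKM on CAST, went from 0.06 to 0.13 (limma adjusted p = 0.13 and 0.017). This call of Fen1 was lost without the pairing of the alleles (limma adjusted p = 0.42) and without replicate 1, 2 or 3. The antisense gene Gm10143 overlaps 78.8% of the Fen1 exons.

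The large differences on other chromosomes changed little. Rfc3 stood at 1.25, Rfc2 at 0.79, Orc5 at 0.75 and Prim2 at 0.70 relative to their chromosomes, and Mcm8, Rrm2, Pold3 and Mcm6 at -0.79, -0.57, -0.55 and -0.46. Chromosome 5, which carries 7 members, more than any other chromosome, had a median of 0.00. Rfc3 and Orc5 on it exceeded 95.3% and 89.7% of its genes. Relative to the chromosome part, the order of the differences among the members thus ran from Rpa3 at -1.36 to Rfc3 at 1.25, with Cdc45 and Rfc4 no longer among the largest.

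Of the members that did not pass the test of the alleles, several had the depth for narrow intervals. Mcm3, with 112 ± 10.5 RPKM on S129 and 113 ± 14.9 RPKM on CAST (SD, n = 4 each), had a log2 difference whose 95% interval ran from -0.11 to 0.10. For Pola2, the second subunit of polymerase alpha, it ran from -0.12 to 0.08, for Cdc6 from -0.09 to 0.14, for Lig1 from -0.16 to 0.02 and for Orc1 from -0.22 to 0.00. Pcna, the most abundant member, passed with a small difference of 0.23, at 682 ± 16.9 RPKM on S129 and 582 ± 13.1 RPKM on CAST (SD, n = 4 each; limma adjusted p = 0.004), and 23.7% of its 75-base words also occur in Pcna-ps2. Gmnn was higher on S129 by 0.20 (limma adjusted p = 0.0049).

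A further 36 genes of replication, which are not members, served as a comparison, among them kinases and checkpoint, chromatin assembly and nucleotide synthesis genes. Of the 35 fitted, 14, Pola1 among them, stood higher on the S129 side, 10 on the CAST side and 11 did not pass. This is 68.6% called, compared with 62.7% of all genes fitted. Relative to the chromosome part, 21 of 34 passed (61.8%), compared with 56.9% of the autosomal genes. Pola1, the catalytic subunit of polymerase alpha, lies on the X chromosome, of which this male line has only the maternal S129 copy, and stood at 7.76 on the log2 scale. Pole4, of polymerase epsilon, was next toward S129 at 0.79 (SE 0.03, limma adjusted p = 6.8e-05). Relative to its chromosome, 6, it stood at 0.58, below Tyms at 0.66, Rnaseh2c at 0.62 and Lrwd1 at 0.59, which were taken up after their values were seen. Toward CAST, Dna2, a nuclease of flap removal, stood at -0.86 and Ticrr, which helps to activate the helicase, at -0.59 (limma adjusted p = 1.1e-04 and 2.8e-04). Pold4, the smallest subunit of polymerase delta, was not fitted, at 0.0321 RPKM.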

How the data were processed

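RNAseq values of untreated F123-ESCs were examined in 4 libraries. The authors removed ribosomal RNA reads, trimmed reads with Trimmomatic (version 0.40), aligned them with STAR to mm10 masked at SNPs, assigned them to S129 or CAST with SNPsplit, and deposited the RPKM of each gene and allele in each library. For each allele the authors deposited a mean of the libraries too, also as log10 of that mean plus 1, neither of which was used here. The program and annotation of the counting, and whether strand was used, are not given in the sources used here. The number in the name of the S129 column of replicate 1 carries a minus sign, and the column was read as that replicate. No column belonged to another sample.

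Ensembl identifiers of 23995 of 24026 genes were found in GENCODE M21, and gene coordinates are mm10. Whole reads were recovered from the RPKM steps for 99.5% of the genes above 0 and for all 44 members, within 0.02 reads. The alleles were compared with limma (version 3.58.1, R 4.3.3) on log2(RPKM+0.1), S129 minus CAST within each library, over 13341 genes whose mean RPKM summed over both alleles was at least 1, with Benjamini-Hochberg adjustment and a threshold of 0.05. A fold change on this scale understates the change of low values. The alleles are paired because each library gave both columns, which were matched by the number in their names. Over 9554 genes, deviations correlated at 0.187 to 0.303 for columns of one number and at -0.299 to 0.277 for others. These ranges overlap, so that the correlations do not settle the matching. Medians of chromosome parts left the members out, and chromosomes 3 and 16 were divided where the S129 share changed. A count model was not fitted, since the unit is RPKM.

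The members, the lists and the rule for the genes given in full were chosen with earlier results of these data known. The rule takes the highest and lowest member of each role, members on chromosomes 6, 8 and 16, the 5 called members with the largest difference in each direction, members whose call changed relative to the chromosome part, members under 1 RPKM, and, of the other replication genes, those on X and the 2 with the largest called difference in each direction. Alternatives covered the pseudocount, the filter, the pairing, the variance trend, centring, whole reads, the gene length and each library left out; the longest coding transcript and the background of at least 5 RPKM were added after seeing the data. The recovery of reads and the fit were tested on simulated data.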

Additional observations from a re-analysis of the deposited data

Results flagged for a closer look

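The 4 values of each expressed member were compared by Dixon's criterion, for its level and for its allele difference, which makes 86 quantities. Chance flags about 1 in 20, and 2 were found. The log2 difference of Fen1 (S129 minus CAST) was 0.084 in replicate 4, whereas the others lay between 0.054 and 0.056. The level of Rfc2 was 238 RPKM in replicate 2, whereas the others lay between 227 and 228 RPKM. Both departures were small in size, and no other member's level or difference was flagged.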

How the results depend on the processing

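Without the replicate block that pairs the alleles by library, 11 members were called higher on S129 and 11 on CAST, and relative to the chromosome part 10 and 8 (of all genes, 24.7% and 23.5%, and 20.8% and 19.6%). Without each library in turn, the counts were 12 to 15 and 13 to 15, and relative to the chromosome part 11 to 15 and 10 to 14, with 26.0% to 29.6% and 25.3% to 29.6% of all genes called, and 22.4% to 26.7% and 22.0% to 26.4% relative to the chromosome part. With recovered reads not divided by a total, 18 and 13 members were called, and 35.0% and 26.8% of all genes. Over all alternatives, 22 of the 34 called members held their call, and 17 of 32 relative to the chromosome part. The share of all called genes that held theirs was not counted. Calls were lost mostly for differences of small size, such as Mcm7, Mcm9, Mcm10, Orc2, Orc3, Prim1 and Rrm1. The sign turned for uncalled members near 0. Centred on autosomal genes, Mcm3 stood at 0.021 and Pola2 at 0.00143. With recovered reads in place of RPKM, Mcm2, Mcm3 and Pola2 stood at 0.014, 0.053 and 0.033. Without each library in turn, Mcm3 ran from -0.033 to 0.017, Pola2 from -0.047 to 0.00172, Cdc6 from -0.00139 to 0.064 and Gins4 from -0.00812 to 0.025. Relative to the chromosome part, Cdc6 stood at -0.046 with the 50 nearest genes on either side and Rfc4 at 0.034 with a pseudocount of 1, and Mcm3 ran from -0.031 to 0.019 without each library in turn. The median level went from 46.5 to 31.3 RPKM with exon-union lengths and to 39.4 RPKM with the longest coding transcript. The median SD between libraries ranged from 0.067 (without replicate 4) to 0.14. The median deviation in replicate 1 turned to 0.011 when values were centred on all genes. The median S129 share went from 50.6% of reads to 49.6% of RPKM, which divides the reads of each allele by that allele's own total. This total was larger for S129 in every library, with 28772351 against 27855621 in replicate 1. The cause of the other changes was not tested. Reads without a SNP limit all levels.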
